A study of Mus musculus with 4 samples.

Results

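Open CpG-poor promoters are the promoters with few CpG dinucleotides at which mouse T-helper 17 (Th17) cells had open chromatin. They were chosen from 21851 protein-coding genes in 2 steps. The ratio of observed to expected CpG (CpG o/e) was computed over 500 bp on each side of every transcription start site (TSS), the highest value of a gene was kept, and the genes were divided into 5 equal groups, of which the poorest, group 1 with 4371 genes, was called CpG-poor (CpG o/e up to 0.2056). Of these, 381 had an open region within 1 kb of a TSS in each of 4 replicates. The members were thus selected on CpG content and on the presence of a region, and the counts, signal and summit positions below describe what those values chose.

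The open regions came from ATAC-seq, in which a transposase cuts accessible DNA and the cuts are sequenced. The series has 1 group, primary Th17 cells of mouse strain C57BL/6NJ, with 4 biological replicates that all carry 1 donor identifier; sex and age are not given, and there is no other cell type or treatment. Where nothing shows that replicates came from separate animals, the spread between them may be partly technical. The lists held from 83904 to 85293 regions per replicate on chromosomes 1 to 19, X and Y, and no read counts, so depth is unknown. Peak names carry 1 library tag (KS134) in the first pair of replicates and another (KS136) in the second pair.

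Most mammalian promoters lie in CpG islands, which stay free of DNA methylation and are open in nearly every tissue. Promoters without an island are usually methylated and closed, and open where tissue-specific transcription factors bind them. Th17 cells are CD4 T cells that secrete interleukin 17; AP-1 proteins such as BATF, and the ETS and RUNX families, are known to occupy their regulatory DNA.

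The 150 bases around the summit, the point of highest signal of a region, are printed for 11 members: the strongest member of 10 of the T-cell gene lists used below and the strongest member of all. Sequence is from the GRCm38.p6 reference, the build named mm10 in the labels, 5′ to 3′ on the strand of the gene. Capitals mark matches on either strand to AGGAAG and CGGAAG (ETS), TGTGGT (RUNX), TGANTCA (AP-1) and GAAANNGAA (ISRE, the element bound by interferon-activated factors). The CGGAAG and ISRE strings were added to the marking after the sequences had been seen.
Trim12c, chr7:104353357-104353506, minus strand: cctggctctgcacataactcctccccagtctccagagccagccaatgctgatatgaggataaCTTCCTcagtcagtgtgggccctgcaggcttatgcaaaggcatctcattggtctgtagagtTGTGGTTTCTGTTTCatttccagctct
Cxcr6, chr9:123806425-123806574, plus strand: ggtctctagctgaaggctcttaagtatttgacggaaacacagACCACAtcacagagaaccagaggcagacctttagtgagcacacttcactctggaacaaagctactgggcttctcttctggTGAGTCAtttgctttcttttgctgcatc
Il24, chr1:130886579-130886728, minus strand: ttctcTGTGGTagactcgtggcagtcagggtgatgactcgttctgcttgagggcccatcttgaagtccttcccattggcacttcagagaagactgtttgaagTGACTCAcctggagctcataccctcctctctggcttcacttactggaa
Ifit1, chr19:34640770-34640919, plus strand: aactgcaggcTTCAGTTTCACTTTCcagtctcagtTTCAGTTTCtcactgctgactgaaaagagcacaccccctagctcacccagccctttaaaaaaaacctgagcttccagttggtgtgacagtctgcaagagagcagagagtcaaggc
Gzmb, chr14:56262337-56262486, minus strand: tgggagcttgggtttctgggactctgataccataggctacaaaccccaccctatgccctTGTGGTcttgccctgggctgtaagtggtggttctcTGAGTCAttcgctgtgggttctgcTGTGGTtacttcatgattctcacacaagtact
Cd160, chr3:96812845-96812994, minus strand: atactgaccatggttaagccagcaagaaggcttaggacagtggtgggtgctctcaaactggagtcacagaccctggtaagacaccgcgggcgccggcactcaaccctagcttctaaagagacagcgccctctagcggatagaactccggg
Gimap7, chr6:48718501-48718650, plus strand: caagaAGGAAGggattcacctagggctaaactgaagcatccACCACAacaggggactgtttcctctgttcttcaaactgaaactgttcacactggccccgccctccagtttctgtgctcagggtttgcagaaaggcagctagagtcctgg
Themis, chr10:28668445-28668594, plus strand: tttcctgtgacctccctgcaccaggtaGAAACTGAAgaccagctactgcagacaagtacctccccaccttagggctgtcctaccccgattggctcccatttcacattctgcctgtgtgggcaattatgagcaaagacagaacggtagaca
Gpr171, chr3:59101826-59101975, minus strand: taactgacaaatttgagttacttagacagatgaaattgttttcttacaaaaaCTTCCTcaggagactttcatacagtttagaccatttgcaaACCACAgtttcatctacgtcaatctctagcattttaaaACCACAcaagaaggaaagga
Il2rg, chrX:101268227-101268376, minus strand: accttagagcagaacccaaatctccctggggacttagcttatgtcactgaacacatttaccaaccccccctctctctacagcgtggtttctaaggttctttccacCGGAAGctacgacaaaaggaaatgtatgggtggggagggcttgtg
Cd3g, chr9:44980375-44980524, minus strand: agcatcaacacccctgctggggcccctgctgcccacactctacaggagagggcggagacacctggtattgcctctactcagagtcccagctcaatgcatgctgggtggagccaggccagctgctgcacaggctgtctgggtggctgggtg

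The printed sequences show how unlike each other these promoters are. Gzmb, the granzyme B gene, held 2 RUNX matches and 1 AP-1 match, and Cxcr6, a chemokine receptor gene, held 1 of each. Ifit1, an interferon-induced antiviral gene, held 3 ISRE matches, 2 of which overlap in the first capital run. Il2rg, which encodes the common gamma chain of the interleukin 2 receptor family, held 1 CGGAAG. Cd3g, a subunit gene of the T-cell receptor complex, and Cd160, a receptor gene of the immunoglobulin superfamily, held no match to any of the 5 strings, which says only that these letters are not in those 150 bases. Relative to the TSS (negative upstream), the summit was at 1 bp in Cxcr6, -18 bp in Cd3g and -26 bp in Ifit1, at -657 bp in Il24 and at 1602 bp, in an intron, in Cd160.

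Openness was rare among CpG-poor promoters and more frequent in each richer group. The 381 open promoters were 8.72% of CpG-poor ones, against 62.2% of all protein-coding promoters (13591 of 21851). The open share was 31.1% in group 2 of CpG o/e, 81.3% in group 3, 93.5% in group 4 and 96.4% in group 5. Within the CpG-poor group, divided again into 5 steps, it was 4.46%, 6.29%, 9.15%, 10.5% and 13.2% from poorest to richest. The median CpG o/e was 0.153 in the members and 0.130 in the 3832 CpG-poor promoters closed in every replicate. Another 158 were open in 1 to 3 replicates. Single replicates had 437, 452, 471 and 461 CpG-poor promoters with a region.

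Some members share a region, since 2 promoters can lie within its reach. The 381 genes rested on 372 separate regions in each replicate. The 9 shared regions served Cd3d and Cd3g, Tmem176a and Tmem176b, Ifi203 and Mndal, Ifit1 and Ifit1bl2, Fpr2 and Fpr3, Rdh1 and Rdh16f1, Ctla2a and Gm49391, Gbp6 and Gm43302, and Il2rg and Gm20489. The values of such a pair are 1 measurement.

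Just inside the CpG boundary were Cnr2 (CpG o/e 0.2042), H2-DMb2 (0.2049) and Casp4 (0.2051), at mean signal percentiles of 57.3, 96.7 and 66.8. Just outside it were S100a14 (0.2058), Cxcl17 (0.2058) and Ulbp1 (0.2065), at 75.1, 81.7 and 76.2. The signal percentile is the rank of a region's deposited signal, its enrichment over background, among all regions of the same replicate, since signal is not normalised between replicates. The CpG-poor genes with the strongest signal among those open in 3 replicates were Gm10799 (mean percentile 95.2, no region in replicate 2), Cacna1f (78.1, none in replicate 4) and Gng3 (63.9, none in replicate 2).

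Once open, a CpG-poor promoter had a region of middling strength. The median signal percentile of the members was 62.6, 60.4, 62.4 and 61.1 in replicates 1 to 4, a mean of 61.6 ± 1.06 (SD, n = 4). It was 62.2 ± 1.03 at open promoters of group 2, 76.8 ± 0.763 in group 3, 82.1 ± 0.554 in group 4 and 80.7 ± 0.504 in group 5, whose open promoters are called open CpG-rich. Members minus open CpG-rich promoters gave -19.1 ± 0.607 points, with the members lower in 4 of 4 replicates. Regions over 1 kb from every protein-coding TSS, called distal, had a median of 45.5 ± 0.164. The members spanned almost the whole scale: 40 had a mean percentile of 90 or more and 47 one under 20.

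Regions at the members were also narrower. Their median width was 851, 778, 911 and 880 bp in the 4 replicates, or 855 ± 56.9 bp, against 1568 ± 39.2 bp at open CpG-rich promoters and 566.5 ± 18.7 bp at distal regions. The median deposited −log10 q was 58.7 ± 3.46, against 222 ± 13.6 at open CpG-rich promoters. Open promoters of group 2 were nearer to the members in both, with a median width of 994 ± 39.8 bp and a median −log10 q of 66.1 ± 4.87. With regions limited to a −log10 q of at least 10, 322 of the 381 stayed open, against 94.5% of all open promoters. Within the 50000 strongest regions of each replicate 256 did, against 85.6% of all open promoters. The 158 promoters open in only some replicates had a median percentile of 18.6 ± 1.93.

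**Figure D1:**
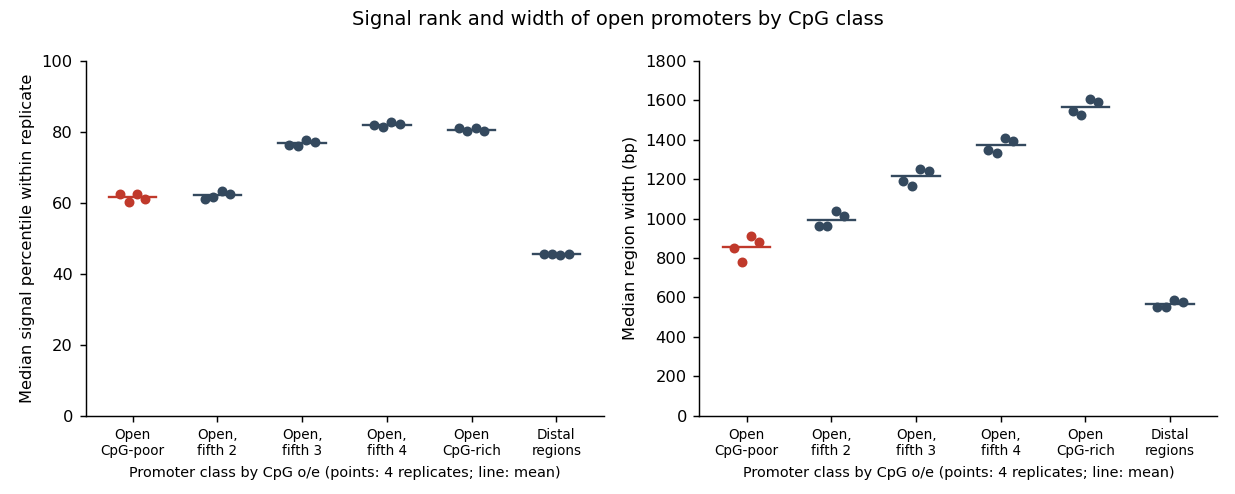
Median signal percentile (left) and median region width in bp (right) of open CpG-poor promoters, of open promoters in the other groups of CpG o/e and of distal regions, with a point for each of the 4 replicates and a line at their mean. The open CpG-poor promoters sit at 61.6 on the left and 855 bp on the right, between distal regions (45.5 and 566.5 bp) and open CpG-rich promoters (80.7 and 1568 bp).

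The summit often lay away from the TSS. It was within 100 bp of a TSS of the gene at 27.7% ± 1.26 of members (SD, n = 4), against 53.4% ± 0.114 of open CpG-rich promoters, and the median distance was 404 ± 20.2 bp against 90.75 ± 0.957 bp. The region covered a TSS at 53.9% ± 0.546 of members and at 97.6% ± 0.352 of CpG-rich promoters. By the median summit of the 4 replicates, 201 members had it upstream of the gene, 108 in an intron, 71 in an exon and 1 downstream of the gene, and at 70 it was over 1 kb from every TSS of the gene. Summits of the 4 replicates lay at most 50 bp apart at 211 members and over 500 bp apart at 29. With the region required to cover a TSS the number of members was 192.

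**Figure D2:**
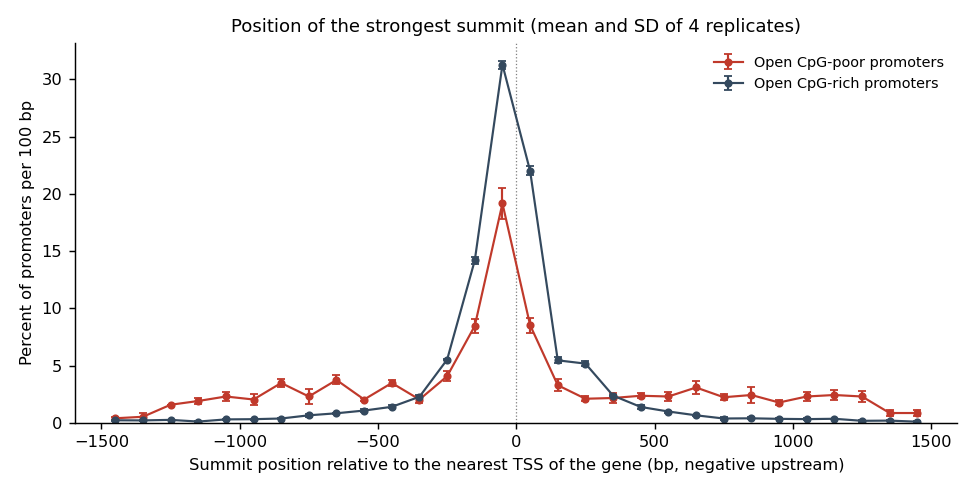
Percent of promoters, per 100 bp, with the summit of the strongest region at each position relative to the nearest TSS of the gene (bp, negative upstream), for open CpG-poor and open CpG-rich promoters, as mean and SD of 4 replicates. Both peak just upstream of the TSS, and the CpG-poor curve has the flatter flanks on both sides.

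Some distant summits lay at the TSS of a neighbouring gene. At 28 members the TSS nearest to the summit was that of another gene, and at 19 of them that gene was not CpG-poor. The summit of the Oscar region was 2 bp from the TSS of Ndufa3, a subunit gene of mitochondrial complex I, and at -1231 bp from that of Oscar, an immunoglobulin-like receptor gene. The Klhl10 summit was 9 bp from the TSS of Nt5c3b and at -888 bp from that of Klhl10. The Pmel summit was 10 bp from the TSS of Cdk2, a cell-cycle kinase gene, and at -1238 bp from that of Pmel, a pigment-cell gene. Mean percentiles of the Oscar, Klhl10 and Pmel regions were 87.7, 91.2 and 86.6. CpG o/e around the summit was above the 0.2056 boundary at 23.3% ± 0.582 of members, among them Pmel (0.738), Klhl10 (0.581) and Oscar (0.519). Which of the 2 genes such a region serves was not tested. Without genes that have a TSS of another, not CpG-poor gene within 1 kb of their own, 370 members were left. That limit goes by the distance between TSSs and not by the summit, so Klhl10 was left out but Oscar and Pmel stayed in.

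The strongest members were mixed in kind. The 12 with the highest mean signal percentile were Trim12c (99.9), Pilrb1 (99.9), Mup6 (99.6), Olfr175-ps1 (99.5), Cxcr6 (99.1), Gm8890, Nlrp1b, Pilrb2, Il24, Ccr3, Olfr49 and Gm49391 (97.5). Trim12c encodes a TRIM protein of a family of antiviral factors, and its region had signals of 21.003, 20.9, 19.6 and 18.6 in the 4 replicates. Pilrb1 and Pilrb2 encode paired immunoglobulin-like receptors, Mup6 a major urinary protein made in liver, and Nlrp1b an inflammasome sensor. Olfr49 encodes an olfactory receptor and lies 58.8 kb from Trac, the constant segment of the T-cell receptor alpha locus. Its signals were 18.9, 19.1, 14.6 and 15.99, with replicates 1 and 2 both above replicates 3 and 4. Several of these belong to gene families with close copies. The 41 bases at the summit occurred at 1 site in the genome for 378 of 381 members and for each of the 20 strongest; Trim30d, Ly6a and Lilrb4a had them at 2. How the authors treated reads that fit more than 1 site is not given in the sources used here, and its part in these signals was not tested.

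The weakest members stood near the floor of the lists. Myo1f, an unconventional myosin gene of blood cells, had signals of 1.83, 1.92, 1.76 and 1.64 and a mean percentile of 0.465. Astl had 0.740, Gpr84, a receptor gene for medium-chain fatty acids, 3.97, and Col20a1, Tff3 and Gm4869 had 5.84, 6.59 and 6.95.

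Most CpG-poor genes on lists of T-cell genes were open. On 11 lists of T-cell and immune-response genes, 100 genes were CpG-poor, and 66 of them were open in every replicate, 12 in some and 22 in none. On 6 lists of other cell types (B cell, myeloid, erythroid and megakaryocyte, hepatocyte, epithelium, muscle) 34 genes were CpG-poor and 4 were open (11.8%), 6 in some replicates and 24 in none. The share of all CpG-poor genes was 8.72%, as above. Of listed genes that were not CpG-poor, 165 of 189 (87.3%) on the T-cell lists and 12 of 41 (29.3%) on the others were open. The contrast between the lists was thus not confined to CpG-poor genes. The median mean percentile of the 66 was 56.4, and that of all 381 was 61.6. With the 50000 strongest regions 43 were open, and among the poorest 10% of genes by CpG o/e 26.

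**Figure D3:**
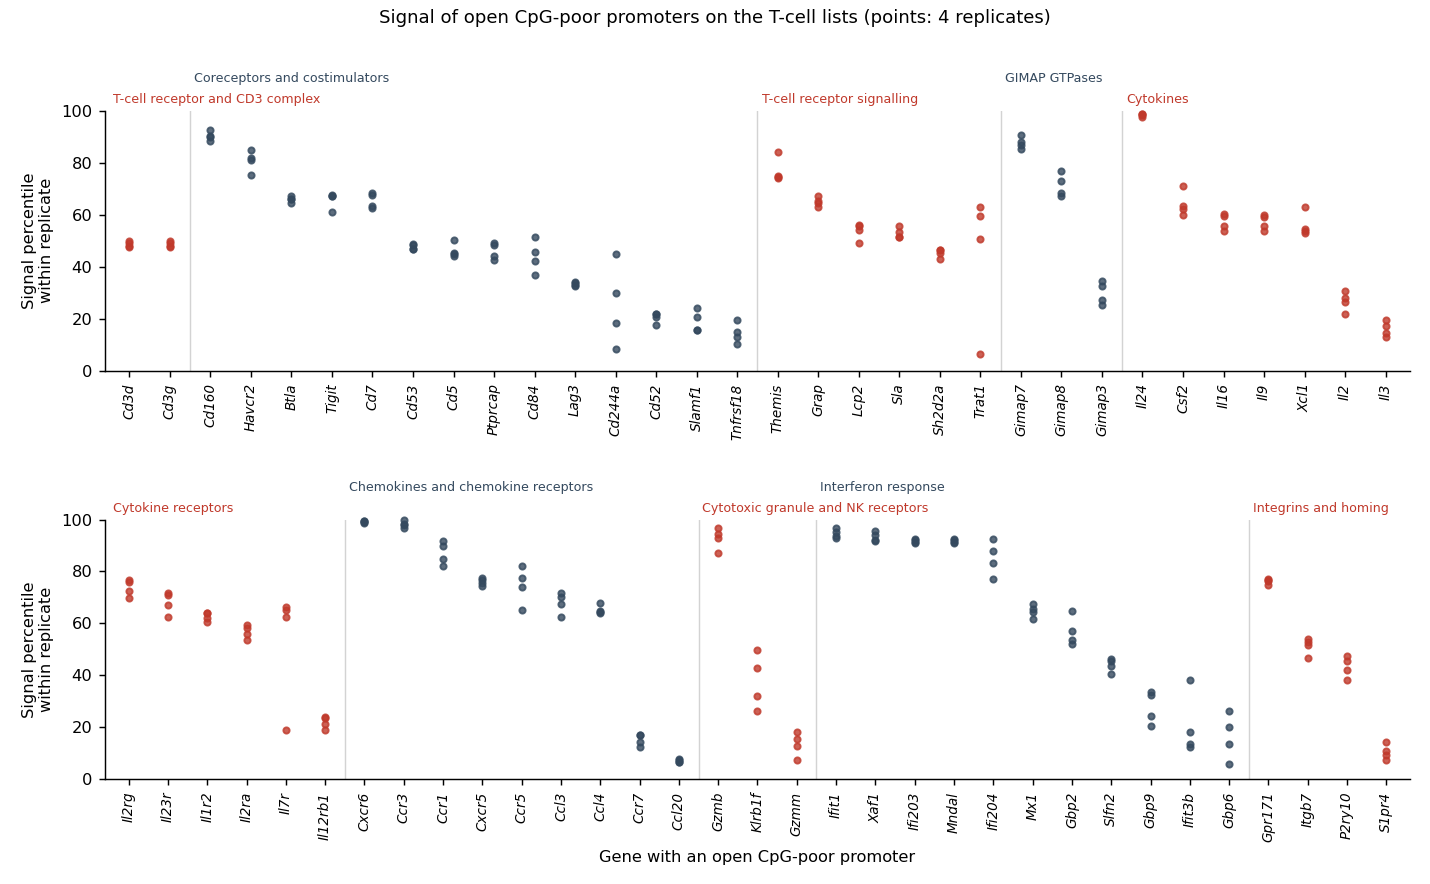
Signal percentile within each replicate for the members on the 10 T-cell lists with more than 1 open gene, ordered within a list by their mean, with 4 points per gene. Values run from about 7 at Ccl20 to 99.1 at Cxcr6, and the replicates lie farthest apart at Trat1, Il7r and Cd244a.

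Surface molecules of T cells were open with 1 exception. Of the CD3 subunit genes, Cd3g and Cd3d share 1 region, with signals of 6.20, 6.25, 5.68 and 5.89 and a mean percentile of 48.8 ± 1.04 (SD, n = 4); the third CpG-poor gene of that list, Ptcra, the pre-T-cell receptor chain used in the thymus, was open in none. All 14 coreceptor and costimulator genes were open. Cd160 had signals of 13.2, 14.03, 13.7 and 13.1 (percentile 90.4 ± 1.72). Havcr2, which encodes the inhibitory receptor TIM-3, stood at 80.8 ± 4.10, Tigit, another inhibitory receptor gene, at 65.8 ± 3.17, and Lag3 at 33.3 ± 0.795. Tnfrsf18, the gene of the costimulator GITR, was lowest of the 14 at 14.3 ± 3.95. All 6 genes of receptor signalling were open, from Themis, a thymocyte selection factor (76.9 ± 4.83), through Lcp2, the SLP-76 adaptor gene (53.8 ± 3.22), to Trat1 (44.9 ± 26.3). The Trat1 signals were 6.32, 2.58, 7.56 and 7.35, with replicate 2 lowest and summits up to 2044 bp apart. The 3 GIMAP genes, which encode GTPases of lymphocyte survival, were Gimap7 at 87.8, Gimap8 at 71.4 and Gimap3 at 30.0. At Gimap7 the annotation also has a TSS of the not CpG-poor model Gm28053 31 bp from the summit.

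Cytokine and cytokine receptor genes were also nearly all open. All 7 CpG-poor cytokine genes were members. Il24, of the interleukin 10 family, had signals of 16.8, 17.6, 16.4 and 16.7 and a percentile of 98.4 ± 0.425. Csf2, which encodes GM-CSF, stood at 64.2 ± 4.84, Il16 at 57.4, Il9 at 57.1 ± 2.91 and Xcl1 at 56.0. Il2, the T-cell growth factor gene, was at 26.7 ± 3.68 and Il3 at 16.02 ± 2.98. Of 7 receptor genes 6 were open, and Csf2rb was open in none. Il2rg had signals of 9.56, 9.28, 9.85 and 9.91 (percentile 73.7 ± 3.14). Il23r, the receptor chain that responds to interleukin 23 and maintains Th17 cells, had 7.84, 9.65, 8.19 and 9.01 (68.0 ± 4.24). Il2ra, the inducible chain of the interleukin 2 receptor, was at 56.7 ± 2.64. Il7r had 7.90, 3.54, 7.88 and 8.33, with replicate 2 apart from the others and summits up to 1479 bp apart. Il1r2, a decoy receptor gene, was at 62.7 and Il12rb1, a chain shared by the interleukin 12 and 23 receptors, at 21.9 ± 2.32.

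The label was checked against marker genes of Th17 cells. Of those outside the CpG-poor group, Il17a, Il17f, Ccr6 and Il1r1 of group 2 were open in 4 replicates and Il22 of group 2 in 0. The open share of group 2 was 31.1%. Rora and Ahr were open in 4 replicates too, but they are in group 5, where 96.4% of promoters were open, so they say little about the label.

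Chemokine, cytotoxic and interferon-response genes were open in part. Of 19 chemokine and chemokine receptor genes 9 were open and 9 closed, with Ccl5 open in 2 replicates. Cxcr6, a receptor gene of tissue-homing T cells, had signals of 17.4, 17.998, 17.2 and 17.8 (percentile 99.1 ± 0.448). Ccr3 was at 98.3 ± 1.23 and Ccr7, which guides naive and central memory T cells to lymph nodes, at 15.2 ± 2.12. Ccl20, the CCR6 ligand gene expressed by Th17 cells, had 2.68, 2.63, 2.47 and 2.67 (7.004 ± 0.580), the lowest of the 66. Closed in all replicates were Ccl1, Ccl2, Ccl6, Ccl9, Ccl17, Ccl22, Ccr2, Cxcl13 and Cxcr2. Of 12 cytotoxic granule and NK receptor genes 3 were open. Gzmb had signals of 15.1, 16.4, 12.1 and 14.02 (92.8 ± 4.04), Klrb1f was at 37.7 and Gzmm at 13.5 ± 4.56, whereas Gzma, Gzmc and Ncr1 were open in none. Of 22 interferon-response genes 11 were open and 8 partly open, led by Ifit1 (94.6 ± 1.63) and Xaf1 (93.3 ± 1.78) and with Ifit3b (20.6 ± 12.1) and Gbp6 (16.5 ± 8.81) lowest. Of 6 integrin and homing genes 4 were open, with Gpr171 at 76.2 ± 0.872 and S1pr4, a sphingosine phosphate receptor gene, at 10.5 ± 2.92.

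**Figure D4:**
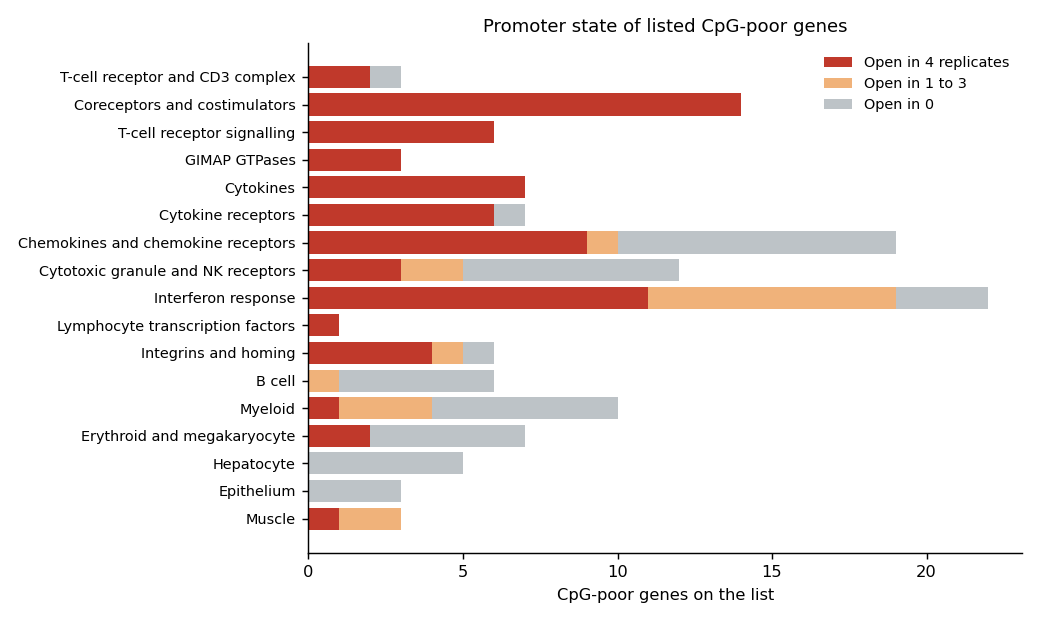
Number of CpG-poor genes on each list whose promoter was open in all 4 replicates, in 1 to 3 or in 0. The 14 coreceptor, 7 cytokine, 6 receptor signalling and 3 GIMAP genes were all open, and none of the B cell, hepatocyte or epithelial genes was open in all 4.

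On the lists of other cell types the open members were Cd300lb of the myeloid list, Klf1 and Gp1ba of the erythroid and megakaryocyte list and Tnnt3 of the muscle list. Cd300lb had signals of 12.8, 16.3, 15.8 and 14.4 (percentile 93.8 ± 4.83). The Klf1 summit (91.4 ± 0.356) lay 1289 bp from the TSS in an exon where CpG o/e was 0.761. Gp1ba and Tnnt3 stood at 12.1 ± 4.03 and 31.1 ± 8.42. The marker genes Ms4a1 and Cd79a of B cells, Csf1r, Lyz2 and Adgre1 of myeloid cells, Ncr1 of NK cells and Hbb-bs of red cells had no promoter region in any replicate. Pax5 had 1 in 1 replicate, Klrb1c in 2, and Cd14 and the CD8 gene Cd8b1 in 4, while Cd8a had none. Whether a few other cells add to the members' signal was not tested.

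Large families of sensory receptors, secreted proteins and cytochrome P450 enzymes made up much of the CpG-poor group, and few of their promoters were open in all 4 replicates. Of 866 CpG-poor olfactory receptor genes 18 were open (2.08%), of 309 vomeronasal receptor genes 1, of 63 cytochrome P450 genes 1 (Cyp1a1), of 53 defensin genes 1 and of 39 serpin genes none. Among 22 genes named for CD antigens 12 were open, among 25 named for interleukins or their receptors 12, among 18 TRIM genes 7 and among 7 guanylate-binding protein (Gbp) genes 4. Predicted genes (Gm symbols) gave 25 of 723. The open share over all CpG-poor promoters was 8.72%, and the families were picked with their values seen. The 18 olfactory receptor promoters ranged in mean percentile from 11.4 (Olfr56, whose summit is inside the interferon-inducible gene Ifi47) to 99.5 (Olfr175-ps1). Olfr1511, at 82.2, lies 36.3 kb from Trav1 of the T-cell receptor alpha locus.

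Some members had other members as neighbours: 115 lay in runs of 2 or more with neighbours within 100 kb, and 55 in 15 runs of 3 or more. Whether this is more than among CpG-poor genes in general was not tested. A run starts and ends at a member, and those below were picked for their many members. A high open share within them thus follows in part from that choice. Over all CpG-poor promoters the share was 8.72%. The longest run was in the class II region of the major histocompatibility complex on chromosome 17 from 34092340 to 34305867, where each of 6 CpG-poor genes was open. There H2-DMb2, a chain of the peptide-loading molecule H2-M, had a mean percentile of 96.7, H2-Eb1, a class II beta chain, 64.6, H2-DMb1 55.5, Tap2, a subunit of the peptide transporter, 50.03, H2-Ob 37.4 and H2-Oa 27.3. The Ms4a run on chromosome 19 (11407661 to 11518559) held 5 of 5, led by Ms4a4b at 79.5 and Ms4a4c at 76.7. The Trim12c and Trim30 run on chromosome 7 (104353338 to 104507825) held 5 of 5, with Trim30c at 96.1 and Trim30b at 29.0. The run of Gimap8, Gimap7, Gimap3, Tmem176b and Tmem176a on chromosome 6 (48647234 to 48841583) also held 5 of 5. Coordinates are of the mm10 build.

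The surroundings of the members were also open. Counting regions over 1 kb from every TSS of the gene and within 50 kb of one, members had 8.96, 9.12, 9.06 and 8.91 in replicates 1 to 4, a mean of 9.01 ± 0.0944 (SD, n = 4). Closed CpG-poor promoters had 2.204 ± 0.0272 and open CpG-rich promoters 7.89 ± 0.0801. The difference between members and closed CpG-poor promoters was 6.81 ± 0.0767, higher in 4 of 4 replicates, and that between members and open CpG-rich promoters was 1.13 ± 0.0383, also in 4 of 4. By the exact two-sided sign-flip permutation test p = 0.13 for both, the smallest p that 4 replicates allow. Part of both differences can follow from the choice of members. A region that reaches within 1 kb of a TSS makes a promoter open, yet is counted here if its summit lies farther. Closed promoters can have no such region. The summit was within 1 kb at 81.0% ± 0.448 of members and 97.0% ± 0.0979 of open CpG-rich promoters. With promoters called open by summits within 1 kb, members exceeded closed promoters by 6.41 ± 0.102. No other region lay within 50 kb of 3.02% ± 0.339 of members, 58.6% ± 0.456 of closed CpG-poor promoters and 1.71% ± 0.108 of open CpG-rich promoters. With regions over 1 kb from every protein-coding TSS the means were 7.14 ± 0.0916 in members and 1.72 ± 0.0263 in closed CpG-poor promoters. Open CpG-rich promoters had 6.69 ± 0.0799 by that count, nearer to the members than with all other regions. Among the 50000 strongest regions the difference between members and closed CpG-poor promoters was 3.41. The 5 members with the most were Il2ra (28), Cd5 (23.5), Gm17490 and Lamb3 (22.5 each) and Lcp2 (20.75), as means of 4 replicates. Partly open promoters had 7.52 ± 0.116.

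Summits of the members often carried an AP-1 string, which open CpG-rich promoters rarely had. Each string was searched on both strands within 50 bp of the summit and in equal windows centred 200 bp away on each side; as background, the letters of the string were read backwards without complementing them. The AP-1 string TGANTCA was present at 18.4%, 19.2%, 18.9% and 20.2% of member summits, or 19.2% ± 0.773 (SD, n = 4), against 1.63% ± 0.0896 of open CpG-rich, 3.92% ± 0.111 of all open promoter and 24.3% ± 0.248 of distal summits. At member summits it was 5.97 ± 0.778 times as frequent as in the flanks, and its reversed string 1.38 ± 0.0733 times. The ratio at open CpG-rich summits was 1.83 ± 0.118 and that at distal summits 6.804 ± 0.115. The members' ratio exceeded the CpG-rich one by 4.14 ± 0.777, in 4 of 4 replicates (exact sign-flip permutation p = 0.13). That difference was 2.49 with windows of 100 bp on each side and 2.65 with the TSSs of all annotated transcripts. The same promoters enter each replicate, so these SDs cover the placing of summits, not the choice of genes.

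**Figure D5:**
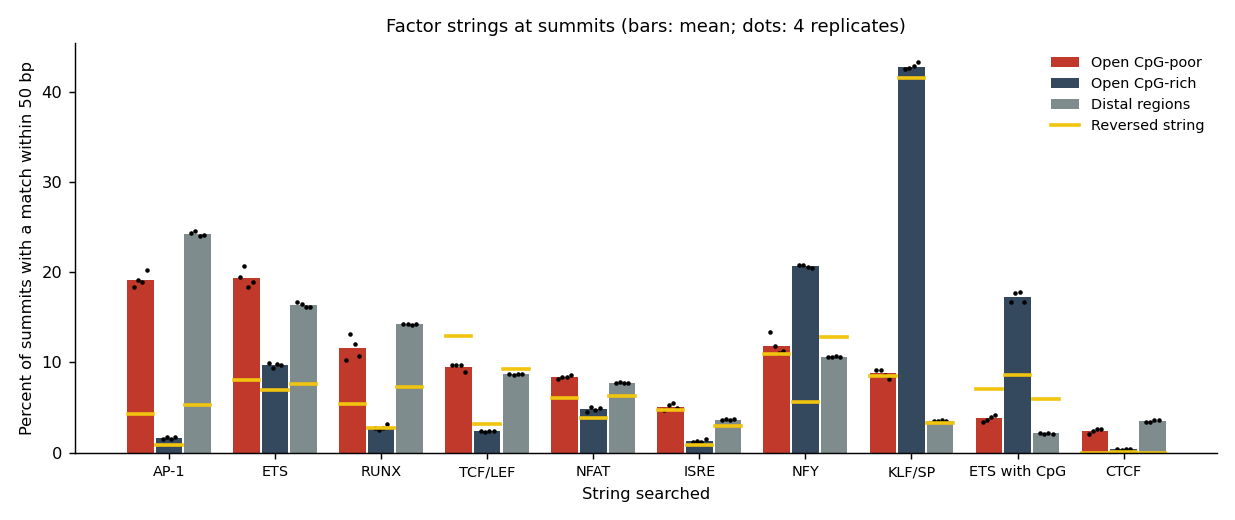
Percent of summits with a match within 50 bp for 10 strings, named by factor, at open CpG-poor promoters, open CpG-rich promoters and distal regions. Bars are means, dots the 4 replicates and yellow lines the means of the reversed strings; AP-1 stands at 19.2% in open CpG-poor and 1.63% in open CpG-rich promoters, KLF/SP at 8.79% and 42.8%.

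The ETS string AGGAAG was present at 19.4% ± 1.01 of member summits, 9.73% ± 0.232 of open CpG-rich, 11.8% ± 0.0753 of all open promoter and 16.4% ± 0.269 of distal summits. Its ratio to the flanks in members was 1.25 ± 0.113, with 0.729 ± 0.0632 for the reversed string, and exceeded that in CpG-rich promoters by 0.207 ± 0.134 (4 of 4 replicates, exact sign-flip permutation p = 0.13). That difference was 0.540 where the region had to cover the TSS and 0.0762 with windows of 100 bp, and it was not higher in every replicate with windows of 25 bp (0.232, exact permutation p = 0.375). The share varied with summit position. Among members whose summit lay within 100 bp of a TSS it reached 34.6% ± 1.44 (100 to 110 promoters per replicate, reversed string 8.49% ± 1.40), against 10.2% ± 0.190 at CpG-rich promoters with such summits. Among members with the summit from there to 500 bp it was 11.9% ± 2.92 and beyond 500 bp 14.5% ± 2.16. AP-1 was at 17.0% ± 1.16, 17.9% ± 2.10 and 21.3% ± 1.59 in these 3 distance classes, a smaller spread. In CpG-rich promoters AP-1 was at 0.967% ± 0.185, 1.04% ± 0.0818 and 8.10% ± 1.07.

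The RUNX string TGTGGT was at 11.5% ± 1.304 of member summits, 2.80% ± 0.241 of open CpG-rich, 4.59% ± 0.0489 of all open promoter and 14.2% ± 0.0659 of distal summits. Its flanks held it nearly as often, with a ratio of 1.16 ± 0.175 in members and 0.896 ± 0.103 in CpG-rich promoters. That difference of 0.266 ± 0.264 (exact sign-flip permutation p = 0.13) was about as large as its SD, and it was 0.0747 (p = 0.625) when all annotated transcripts gave the TSSs. Without replicate 2 it was 0.166, and with windows of 100 bp 0.460. The ISRE string GAAANNGAA was at 5.12% ± 0.339 of member summits and 1.29% ± 0.152 of CpG-rich ones, but its reversed string was at 4.72% ± 0.567 in members. The TCF/LEF string CTTTGA, at 9.51% ± 0.394 and 2.37% ± 0.0624, was less frequent in members than its reversed string (12.9% ± 0.251). The NFAT string GGAAAA, at 8.40% ± 0.214 and 4.79% ± 0.226, had a ratio to the flanks of 1.06 ± 0.0236 in members. Both this string and AGGAAG hold GGAA, but the next base differs, so the same GGAA cannot match both.

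Strings that hold CpG were present at fewer member summits, as the choice by CpG entails. KLF/SP (GGGCGG) was at 8.79% ± 0.503 of member summits and 42.8% ± 0.358 of open CpG-rich ones, and CGGAAG at 3.81% ± 0.339 and 17.2% ± 0.577. Their ratios to the flanks went the other way: KLF/SP had 4.27 ± 0.437 in members and 1.39 ± 0.0217 in open CpG-rich promoters, and CGGAAG 2.43 ± 0.311 and 1.98 ± 0.0688, both higher in members in 4 of 4 replicates. The reversed KLF/SP string had ratios of 3.90 ± 0.472 and 1.31 ± 0.0238. These are descriptions with no test, since CpG chose the members. The CCAAT box bound by NFY was at 11.9% ± 1.06 of member summits, close to its reversed string (10.96% ± 1.2004), and at 20.7% ± 0.156 of CpG-rich summits (reversed string 5.64% ± 0.187). The CTCF string was at 2.43% ± 0.251 of member, 0.398% ± 0.0624 of CpG-rich and 3.51% ± 0.142 of distal summits, with 9 members holding it at the median summit, among them Ly6g6e, Ly6g5b and Tnnt1. The AP-1/IRF composite, which contains the AP-1 string, was at 0.525% ± 0.214 of member and 0.0297% ± 0.0119 of CpG-rich summits, and Ccr3 and Prss22 held it at the median summit. The ROR string TAGGTCA was at 1.38% ± 0.330 of member, 0.267% ± 0.0449 of CpG-rich and 1.46% ± 0.0296 of distal summits. Its 5 holders at the median summit were Il23r, Ccl3, Trim30b, Olfr525 and Olfr1428, and its flanks in members held it as often (ratio 0.978 ± 0.268).

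Over the summits of all open promoters, the ISRE string was at 1.83% ± 0.0709, the TCF/LEF string at 3.38% ± 0.0506 and the NFAT string at 5.01% ± 0.131, each below its share in the members. The KLF/SP string was at 36.6% ± 0.322, CGGAAG at 15.4% ± 0.317 and the CCAAT box at 20.8% ± 0.222, each above it. The CTCF string was at 0.762% ± 0.0279, the AP-1/IRF composite at 0.0625% ± 0.0153 and the ROR string at 0.423% ± 0.0456.

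The same strings were sought from 250 bp before to 50 bp after the TSS with the highest CpG o/e, a window that is set by the annotation and not by the region. AGGAAG was in 43.6% of members, 39.1% of closed CpG-poor, 26.7% of open CpG-rich and 33.8% of all promoters. TGTGGT was in 28.6%, 22.8%, 7.72% and 14.4% of the same classes, and TGANTCA in 14.7%, 13.0%, 2.66% and 6.58%. In these strings members lay nearer to closed CpG-poor than to open CpG-rich promoters. The TATA box TATAAA between 40 and 15 bp before that TSS was in 16 of 381 members (4.20%), 5.90% of closed CpG-poor, 0.594% of open CpG-rich and 2.28% of all promoters. KLF/SP was in 12.9% of members and 3.84% of closed CpG-poor promoters.

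In base composition the summits were nearer to distal regions, and in repeats they lay between distal regions and open CpG-rich promoters. The median GC content within 50 bp of the summit was 50.7% ± 0.495 in members, 68.8% ± 0.572 in open CpG-rich promoters and 48.3% ± 0.495 in distal regions. The summit base was soft-masked, that is, inside an annotated repeat, at 5.84% ± 0.919 of members, 2.64% ± 0.152 of open CpG-rich promoters and 9.00% ± 0.0923 of distal regions.

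Members on the T-cell lists differed somewhat from the other 315 members in where the summit lay. By the median summit, 27 of the 66 (40.9%) had it within 100 bp of a TSS, against 77 of 315 (24.4%), and the median distance was 127 bp against 455 bp. The ETS string was at 18 of 66 (27.3%) and 58 of 315 (18.4%), the RUNX string at 13 (19.7%) and 34 (10.8%) and the AP-1 string at 13 (19.7%) and 62 (19.7%). Their median signal percentile was 56.4 against 62.9. These are counts over 1 set of genes chosen with results known, with no test.

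The SD of a member's percentile over the 4 replicates had a median of 3.74 and was highest at Trat1 (26.3). The percentile was higher in both KS134 replicates than in both KS136 replicates at 96 of 381 members, and lower in both at 68. Of all 13591 open promoters it was higher at 2394 (17.6%) and lower at 3071 (22.6%). Higher was thus the more frequent direction in members, and lower in all open promoters. Among open CpG-rich promoters 832 were higher and 759 lower. In both directions together this was 43.0% of members and 40.2% of all open promoters. The tags were not tested.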

How the data were processed

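The series holds ATAC-seq peak lists of 4 biological replicates of 1 group of Th17 cells, and no other group. The deposited lists are in mm10 and give, for each region, the authors' signal (enrichment over background, not normalised between replicates) and −log10 q as their peak caller wrote them, with a summit; aligner and peak caller: not given in the sources used here. Lists were called per replicate. They hold no read counts, so depth and counting error are unknown.

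Regions of the autosomes and of X and Y were joined to TSSs of GENCODE M21 genes. TSSs of protein-coding transcripts with the basic tag were used, where the plan had named every annotated transcript; the difference is given below. A gene took its strongest region by signal, per replicate. Values are means and SDs over replicates. Differences in other regions and in the AP-1, ETS and RUNX ratios were tested with an exact two-sided sign-flip permutation test. The choice of members can set part of the difference in other regions. Strings were searched in the GRCm38.p6 reference. Scripts used python 3.11.15, pandas 2.3.3, numpy 2.4.6, pysam 0.24.0 and matplotlib 3.10.9. The joining step was tested on simulated data, where all of 2000 open calls matched.

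The members and gene lists were chosen with earlier results of these data known. Genes named are the members on the lists, the 12 strongest and 6 weakest members, the 3 genes on each side of the CpG boundary, the 3 strongest genes open in 3 replicates, the 5 with most other regions and the members of the densest runs. Neighbour, family and string examples outside these were chosen after their values were seen. Sequences are of the strongest member of 10 T-cell lists and the strongest of all, on the chromosomes used here for sequence. Values of 1 list member and of some marker genes are not reported here, though counts include them. Cxcl11, Cd94 and Mx2 matched no gene.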

Additional observations from a re-analysis of the deposited data

Results flagged for a closer look

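In 151 quantities, 106 of them signal percentiles of named members, 11 had 1 of the 4 replicates far from the others by Dixon's test at its 95% level. Chance flags about 1 in 20 groups of 4, so a number of this size has to be read against that. Among summaries over all members, 12.1% had a region in the top 10% of signal in replicate 2, against 10.5% to 10.8% in the others. The median GC at the summit was 51.5% in replicate 3 and 50.5% in the others. The TCF/LEF string was at 8.92% of summits in replicate 4 and 9.71% in the others, and the CACCC box at 1.57% in replicate 2 and 1.84% in the others. For GC, TCF/LEF and the CACCC box the others had equal values. Any gap, however small, is then flagged, so the rate of 1 in 20 does not hold for these.

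Among single members, the strongest region at Il7r stood at percentile 19.1 in replicate 2 and at 62.6 to 66.4 in the others. The summits lay up to 1479 bp apart, so the replicates may not hold the same region. Themis was high in replicate 3 (84.2, others 74.1 to 75.1) and Xcl1 in replicate 1 (62.9, others 53.1 to 54.4). Tigit was low in replicate 4 (61.1, others 67.3 to 67.5). The 3 near the top of the scale moved little: Mup6 was at 99.2 in replicate 2 (others 99.7), Pilrb1 at 99.68 in replicate 1 (others 99.93 to 99.96) and Pilrb2 at 96.97 in replicate 4 (others 99.03 to 99.4). No cause was tested.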

How the results depend on the processing

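No direction changed under any alternative. The differences in other regions and in the ETS, RUNX and AP-1 ratios to the flanks kept their sign on average in all 18 settings each, but several changed in size, and the exact permutation test cannot pass 0.05 with 4 replicates. The difference in other regions, reported as 6.81, was 3.41 in the 50000 strongest regions and 1.40 within 10 kb in place of 50 kb. It was 6.41 with promoters called open by summits within 1 kb, which keeps the region that chose a member out of the count. The ETS difference, reported as 0.207, was 0.347 with a −log10 q of at least 10, 0.540 with the region over the TSS, 0.342 without genes beside a not CpG-poor TSS and 0.0762 with 100 bp string windows. It was not higher in every replicate in the 50000 strongest regions (0.163) and with 25 bp string windows (0.232). The RUNX difference, reported as 0.266, was 0.424 with the region over the TSS, 0.444 with a 250 bp CpG window, 0.460 with 100 bp string windows, 0.166 without replicate 2 and 0.0747 under all annotated transcripts (exact sign-flip permutation p = 0.625). It was not higher in every replicate either with 25 bp string windows (0.233) or without replicate 1 (0.260). The AP-1 difference, reported as 4.14, was 2.49 with 100 bp string windows and 2.65 under all annotated transcripts. Leaving out each replicate in turn gave 6.72 to 6.77 other regions, 0.163 to 0.260 for ETS, 0.166 to 0.334 for RUNX and 4.02 to 4.75 for AP-1. The median percentile of the members, reported as 61.6, was 66.2 with a −log10 q of at least 10, 71.6 in the 50000 strongest regions, 60.3 with a 500 bp promoter window, 62.9 with the region over the TSS, 59.2 with a region in at least 3 replicates, 56.9 in the poorest 10% by CpG and 60.2 with a 250 bp CpG window. In the same order, the difference to open CpG-rich promoters, reported as -19.1, was -14.9, -10.6, -20.4, -17.97, -21.4, -23.8 and -20.7. The share of summits within 100 bp of a TSS, reported as 27.7%, was 29.8% with the −log10 q limit, 36.6% with the 500 bp window, 55.1% with the region over the TSS, 26.3% with at least 3 replicates and 25.5% with the 250 bp CpG window. The number of members was 192 with the region over the TSS and 140 in the poorest 10%, and open genes of the T-cell lists were 43 in the 50000 strongest and 26 in the poorest 10%, where fewer genes enter. Of alternatives chosen after seeing the data, all annotated transcripts gave 22.9% of summits near a TSS, and summits within 1 kb gave 60.5, -20.6 and 35.8% for these 3 values. Leaving out each replicate in turn gave 388 to 400 members, a percentile of 59.98 to 61.5, a difference of -20.5 to -19.3 and a share of 26.2% to 27.7%. No paired analysis was possible because there is only 1 group of samples to compare; the sign-flip tests set classes of promoters side by side within each replicate. Depth is unknown, so no limit for weak regions can be given.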
